A study of Homo sapiens with 8 samples.

Results

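The metallothionein genes and MTF1, the zinc-sensing transcription factor that switches them on, were followed through a table of gene counts from SET-2 cells. The set comprised 9 of the 25435 symbols in the table, namely MT1A, MT1E, MT1F, MT1G, MT1H, MT1M, MT1X, MT2A and MTF1, chosen by their symbols. The choice was made with measured values in view: a lower level of MT1E in cells with ZRSR2 guides was known from these same libraries, so values of ZRSR2 guides against controls are given below as a description, without a test. Differences between experiments were not named in that choice and were tested. The set and the lists of other genes were, however, chosen with earlier results of these data known. A further 8 metallothionein symbols of the table are described beside the set.

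All 8 libraries came from SET-2, an established line of megakaryoblasts grown from a thrombocythemia that had turned into leukemia. SET-2 is known to carry a JAK2 mutation, which all groups therefore share. Of the libraries, 4 came from cells labelled ZRSR2 KO, for knockout, transduced with a guide RNA against ZRSR2, a splicing factor of minor introns. Another 4 came from cells with a non-targeting guide, and all guides were in a PLKO5 GFP vector. Both genotypes were made with 2 guides, and every guide has 1 library from experiment 1 and 1 from experiment 2. RNA was taken on day 20 for one biological replicate and day 25 for the other, and reading these as experiment 1 and experiment 2 is an assumption. The guide cells are transduced populations and not stated to be single clones.

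Metallothioneins are small proteins in which cysteine residues bind zinc, copper and cadmium ions. They buffer cellular zinc and bind toxic metals, and their genes are switched on by zinc, glucocorticoids and oxidative stress. MTF1 binds zinc and then attaches to short metal response elements in their promoters. In blood cells their messenger RNA is known to follow the zinc supply.

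The sequences show how alike the members are, which bears on how reads can be assigned to them. The genes lie side by side on chromosome 16, from MT4 at 56565049 to MT1X at 56684196 in GENCODE 29 on GRCh38, while MTF1 lies on chromosome 1 (37809567 to 37859620, minus strand). Within this cluster MT1G is on the minus strand and the others described here are on the plus strand. The authors' counts rest on hg19, so these positions place the genes and were not used for counting. The coding sequences of 3 members are given 5′ to 3′ from the start codon to the stop codon, with the cysteine codons TGC and TGT in capitals. MT2A is the most abundant member, MT1E the one that marks the ZRSR2 comparison, and MT1G one that fell between experiments.
MT2A: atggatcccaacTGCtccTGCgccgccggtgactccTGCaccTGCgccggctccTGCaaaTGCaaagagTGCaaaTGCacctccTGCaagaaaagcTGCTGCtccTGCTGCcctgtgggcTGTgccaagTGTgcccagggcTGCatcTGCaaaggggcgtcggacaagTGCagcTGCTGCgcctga
MT1E: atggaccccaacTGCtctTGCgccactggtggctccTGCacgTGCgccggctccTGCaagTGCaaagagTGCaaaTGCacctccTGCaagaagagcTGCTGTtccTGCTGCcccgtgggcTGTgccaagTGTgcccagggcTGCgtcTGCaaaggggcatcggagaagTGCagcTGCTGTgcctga
MT1G: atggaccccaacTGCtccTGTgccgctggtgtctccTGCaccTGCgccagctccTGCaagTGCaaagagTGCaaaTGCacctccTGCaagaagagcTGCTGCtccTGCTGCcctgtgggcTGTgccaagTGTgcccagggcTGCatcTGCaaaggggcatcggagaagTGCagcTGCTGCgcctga
All 7 MT1 members and MT2A had 61 codons before the stop, of which 20, or 32.8%, were cysteine codons. MT1E matched MT2A at 172 of 186 coding bases, or 92.5%, and MT1G matched MT2A at 177, or 95.2%. The transcripts outside the coding part differ more. Of the windows of 75 bases in the reference transcript of each gene, 0 of those in MT2A, MT1A and MT1F, 0.794% in MT1E and 0.132% in MT1M also occurred in a transcript of another gene. The share was 6.63% for MT1G, 10.8% for MT1H and 31.6% for MT1X, which shares sequence with the overlapping transcript AC026461.1, MT1G and MT1XP1. Of windows of 50 bases, 4.88% in MT2A, 5.76% in MT1A, 3.59% in MT1F, 5.34% in MT1E and 7.05% in MT1M occurred in another gene. For MT1G, MT1H and MT1X this share was 20.2%, 20.4% and 45.1%. The read length is not given in the sources used here. The level of MT1X and, less so, of MT1G and MT1H is thus uncertain to the extent that RSEM had to divide shared reads. With reads near 50 bases this would hold to a smaller extent for the other metallothionein members too.

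MT1L, a neighbour outside the set that is annotated as a transcribed pseudogene, is shown because it went against the members between experiments. Its transcript (chromosome 16, 56617476 to 56618818, plus strand, GRCh38) was aligned with the coding sequence of MT1E, and the bases that differ are in capitals.
MT1L: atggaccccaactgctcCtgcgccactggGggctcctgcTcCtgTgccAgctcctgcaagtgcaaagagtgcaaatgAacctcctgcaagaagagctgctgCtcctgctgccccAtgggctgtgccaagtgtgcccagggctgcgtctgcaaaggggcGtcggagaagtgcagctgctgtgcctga
The stretch of 186 bases was 94.6% identical to MT1E, with 10 differences. One of them, C78A, counted from the first base of the MT1E start codon and giving MT1E's base first, turned codon 26 into an in-frame stop. None of the windows of 75 bases in the MT1L transcript occurred in a transcript of another gene, and 4.42% of windows of 50 bases did, in MT1P3.

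Promoter sequences were matched by symbol for 4 of the 9 set members in RefSeq on GRCh38.p14. The 250 bases before the start of MT1H are shown because that window holds the most copies of the metal response element among them and overlaps no GENCODE 29 exon. They lie at chr16:56669564-56669813 on the plus strand. Capitals mark the core of the metal response element, searched as TGCACNC and TGCGCNC on both strands, and no matches overlapped in the windows described here.
MT1H: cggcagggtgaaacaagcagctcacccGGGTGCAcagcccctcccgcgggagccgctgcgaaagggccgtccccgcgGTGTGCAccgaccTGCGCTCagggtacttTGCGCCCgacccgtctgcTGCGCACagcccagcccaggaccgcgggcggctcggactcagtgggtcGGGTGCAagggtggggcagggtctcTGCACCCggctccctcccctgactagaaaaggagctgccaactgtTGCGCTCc
MT1H held 8 such cores, MT2A 7 and MT1X 4, and the MTF1 promoter held 0. Among 35116 RefSeq promoter windows of the same length, 24.8% held at least 1 core, 0.37% at least 4, 0.0313% at least 7 and 0.0171% at least 8. A match describes the letters alone and is no evidence of binding.

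The libraries held 31106042 to 71521173 expected counts each, the unit in which RSEM estimates reads per gene. Levels are given as CPM, counts per 1000000 counts of a library after TMM scaling, and 3 counts corresponded to 0.0428 to 0.0971 CPM. ZRSR2 itself was at 24.8 ± 4.99 CPM with ZRSR2 guides and 39.5 ± 1.34 CPM with non-targeting guides (SD, n = 4 each). The megakaryoblast markers ITGA2B (2085 to 2708 CPM) and GATA1 (241 to 306 CPM) were present in every library, while GP1BB had no count. Of markers of other cells, CD3E, CD3D and MS4A1 reached at most 0.183 CPM, but LYZ, a monocyte marker, was at 206 to 267 CPM. The limit of 3 counts, which is also what a count of 0 allows, reflects counting alone, because the reads carry no molecular identifiers.

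The family was dominated by MT2A. Per 1000 bases of reference transcript, the scale on which genes can be compared, MT2A had a mean level of 154.8 CPM over the 8 libraries. MT1X followed at 49.6 CPM, MT1E at 25.3 CPM, MT1G at 20.5 CPM and MT1F at 8.44 CPM per 1000 bases. MT1H stood at 1.48 CPM, MT1M at 0.59 CPM and MT1A at 0.172 CPM per 1000 bases. The lowest MT2A library (116 CPM per 1000 bases) was above the highest MT1X library (68.3), whereas the ranges of MT1X, MT1E and MT1G over all libraries overlapped. Within single libraries MT1X was above MT1E and above MT1G in 8 of 8. On this scale MT1E was above MT1G in 5 of 8, so this pair had no fixed order. MT1G was on average above MT1E in experiment 1 (29.3 against 25.9) and below it in experiment 2 (11.7 against 24.8). In CPM not divided by length, MT1E was above MT1G in every library. The changing order thus rests on reference transcript lengths of 704 bases for MT1E and 406 for MT1G. MTF1 was at 8.15 CPM per 1000 bases of its far longer transcript. The reference transcript of MT2A, of 786 bases, begins upstream of the RefSeq start, so its level per length is lower than it would be over a shorter model.

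**Figure D1:**
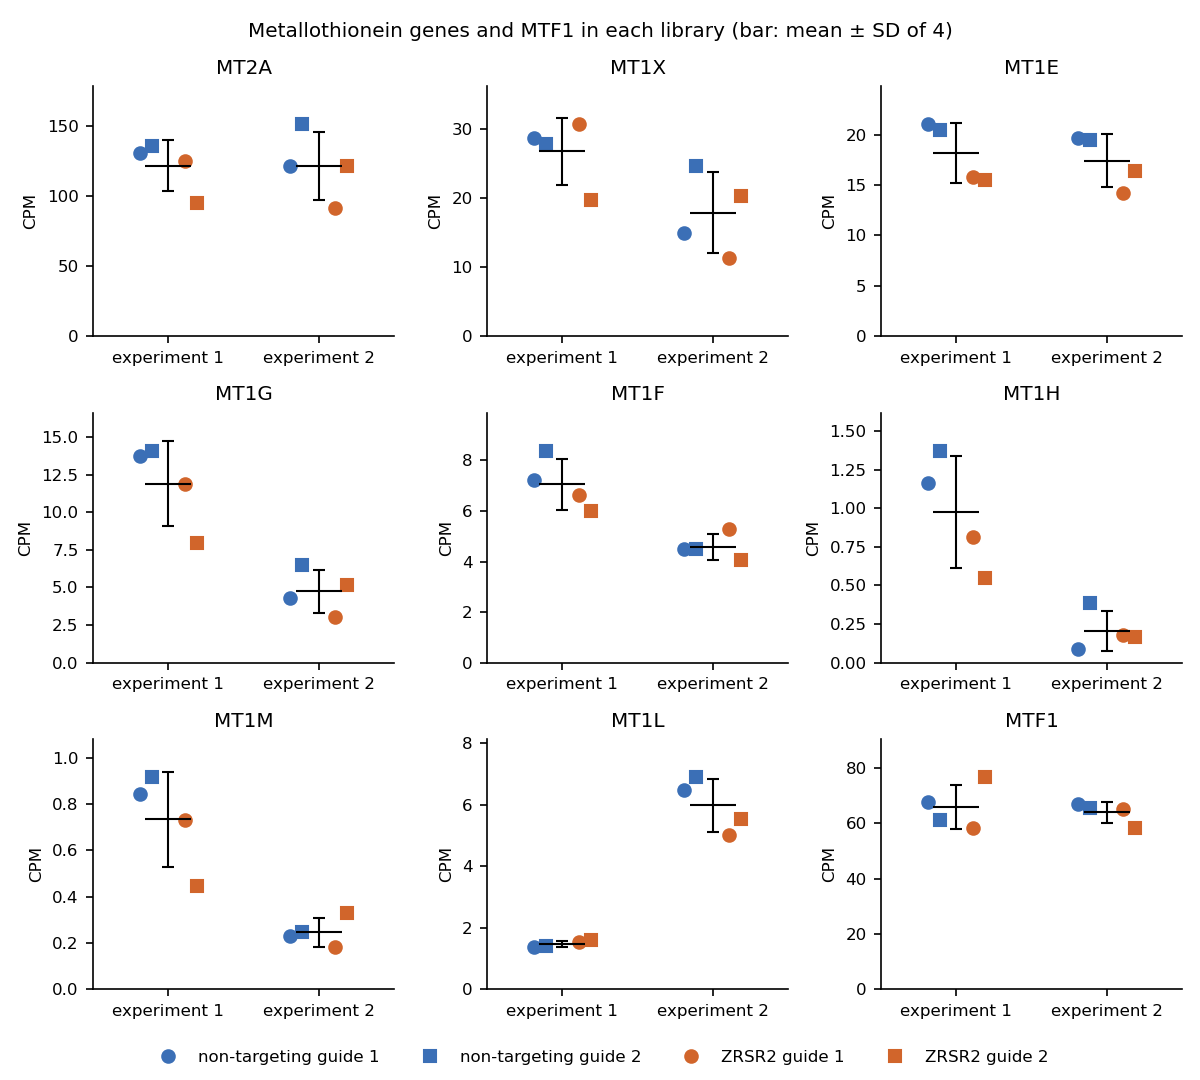
Level of 8 metallothionein genes and MTF1 in each library, in CPM on a linear axis from 0, by experiment. Blue marks non-targeting and orange ZRSR2 guides, circles guide 1 and squares guide 2, and black bars the mean ± SD of the 4 libraries of an experiment. MT1G, MT1F, MT1H and MT1M are lower in experiment 2 without overlap, MT1L is higher, and MT2A, MT1X, MT1E and MTF1 overlap between them. The count filter favoured this for MT1H and MT1M, and 28% of all tested genes are lower without overlap.

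Between experiments the members split into those that fell and those with no detected difference. The contrast averaged both genotypes in edgeR's quasi-likelihood test with Benjamini-Hochberg adjustment over 14898 genes. In it 58.2% of all genes passed an adjusted p of 0.05, with 29.6% higher and 28.6% lower in experiment 2. Of the 9 set members, 6 reached the level the count filter asks for, 0.256 CPM, in every library. Of these 6, 3 were lower, 0 higher and 3 did not pass, with a median log2 fold change of −0.33, where all tested genes had a median of 0.0035. MT1H and MT1M reached that level in all 4 libraries of experiment 1 and in 1 of experiment 2. They passed the filter only through the experiment in which they were high, so their values are given without a test. MT1A was too low for the filter. The p-values measure the spread between guide libraries of the same genotype within an experiment, which differs from the SD over 4 libraries given below. Each experiment was a single collection, so day, batch and culture cannot be told apart.

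MT2A, the main metallothionein of most human cells, was at 130.6 and 136.0 CPM with non-targeting guides 1 and 2 and 125.0 and 95.4 CPM with ZRSR2 guides 1 and 2 in experiment 1. In experiment 2 these 4 guides gave 121.8, 151.6, 91.5 and 121.5 CPM. The experiments covered nearly the same range, with means of 121.8 ± 18.2 and 121.6 ± 24.6 CPM (SD, n = 4). The log2 fold change of experiment 2 over experiment 1 was −0.01 (SE 0.12, edgeR adjusted p 0.966), and its sign depended on the library: leaving out each in turn gave −0.115 to 0.099.

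MT1E, an isoform that like MT2A binds zinc and copper, also showed no detected difference. It was at 21.1 and 20.5 CPM with non-targeting guides and 15.8 and 15.6 CPM with ZRSR2 guides in experiment 1, and at 19.7, 19.5, 14.2 and 16.4 CPM in experiment 2. The log2 fold change between experiments was −0.06 (SE 0.09, edgeR adjusted p 0.579). MTF1 was at 67.6, 61.2, 58.4 and 76.7 CPM in experiment 1 and at 66.9, 65.5, 65.4 and 58.2 CPM in experiment 2, in the same order of guides. The ZRSR2 guide 2 library of experiment 1 was the highest, and the experiments overlapped. Its log2 fold change was −0.04 (SE 0.09, edgeR adjusted p 0.711), so no difference in the messenger RNA of the regulator was detected.

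MT1G, a metallothionein known to be silenced by methylation in several tumours, fell the most among the members above 1 CPM. It was at 13.7, 14.1, 11.9 and 7.95 CPM in experiment 1 and at 4.29, 6.46, 3.06 and 5.16 CPM in experiment 2, for non-targeting guides 1 and 2 and ZRSR2 guides 1 and 2. Every experiment 1 library was above every experiment 2 library. The experiment means were 11.9 ± 2.81 and 4.74 ± 1.43 CPM (SD, n = 4), 2.51-fold apart. On the log2 scale MT1G fell by 1.33 (SE 0.20), at an edgeR adjusted p of 0.00021.

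MT1F was at 7.22, 8.39, 6.63 and 6.02 CPM in experiment 1 and at 4.49, 4.48, 5.30 and 4.05 CPM in experiment 2. These groups did not overlap either, where 28% of all tested genes were lower in experiment 2 without overlap. The log2 fold change was −0.62 (SE 0.13, edgeR adjusted p 0.00228).

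MT1X was at 28.7, 27.9, 30.7 and 19.7 CPM in experiment 1 and at 14.98, 24.7, 11.4 and 20.4 CPM in experiment 2. The groups overlapped, since ZRSR2 guide 2 in experiment 1 was below both guide 2 libraries of experiment 2. The log2 fold change was −0.59 (SE 0.21, edgeR adjusted p 0.0305). This call was lost with DESeq2 (adjusted p 0.0954) and in 5 of the 8 edgeR fits that left out a library, namely non-targeting replicates 1, 2 and 3 and ZRSR2 replicates 1 and 3, with adjusted p-values up to 0.145. In these numbers 1 and 2 stand for the guides of experiment 1, while 3 and 4 stand for the same guides in experiment 2.

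The scarce members rested on few counts. MT1H was at 1.16, 1.37, 0.814 and 0.551 CPM in experiment 1 and at 0.0855, 0.385, 0.18 and 0.164 CPM in experiment 2, where it rested on 6 to 14 counts per library. MT1M was at 0.841, 0.915, 0.73 and 0.445 CPM in experiment 1 and at 0.228, 0.247, 0.18 and 0.328 CPM in experiment 2, on 8 to 16 counts. Both were lower in every experiment 2 library than in any of experiment 1. The experiment means were 4.79-fold apart for MT1H and 2.98-fold apart for MT1M, differences that the count filter favoured. MT1A had at most 4 counts in the libraries of experiment 1 and 1 to 11 in experiment 2 and was too low to test.

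MT1L went the other way. It was at 1.36, 1.40, 1.54 and 1.59 CPM in experiment 1 and at 6.50, 6.90, 5.03 and 5.53 CPM in experiment 2, a 4.06-fold rise without overlap. Its log2 fold change was 2.01 (SE 0.14, edgeR adjusted p 1.82e-06), where 8.75% of all tested genes were called and at least 2-fold higher. MT1L was the only metallothionein outside the set with enough counts to test. Its values were looked at before it was chosen for description in this detail.

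**Figure D2:**
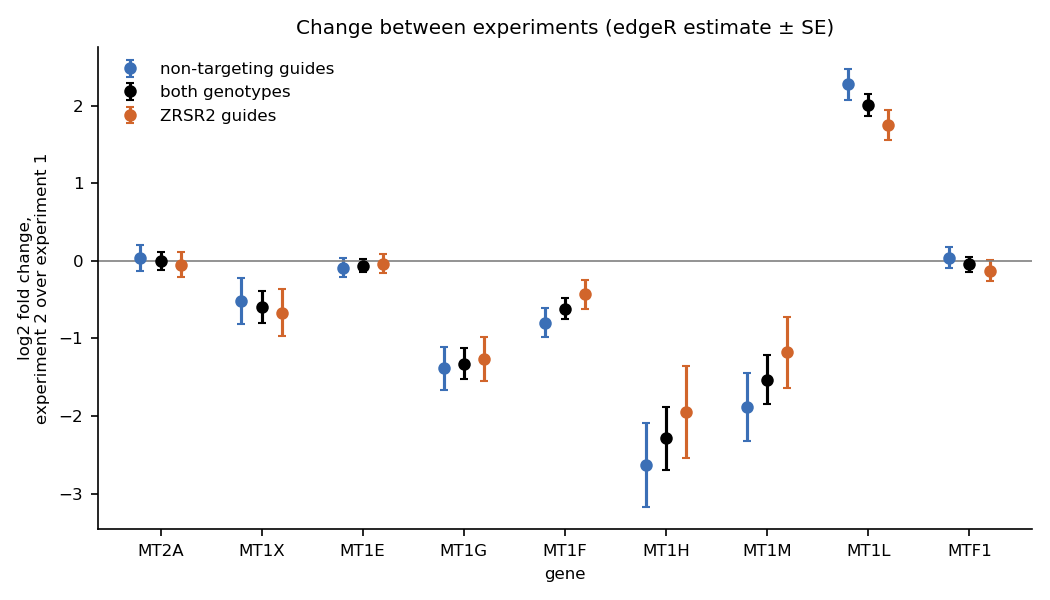
Log2 fold change of experiment 2 over experiment 1 for 8 metallothionein genes and MTF1, estimated within non-targeting guides (blue), within ZRSR2 guides (orange) and over both (black), with the standard error from edgeR. MT1G, MT1F, MT1H, MT1M and MT1X lie below 0 and MT1L above 0 in both genotypes, and MT1E lies below 0 by less than its standard error. MT1H and MT1M, which passed the count filter only through experiment 1, are shown without a test.

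The change was then taken within each genotype, 2 libraries against 2, in the same fit of all 8 libraries. The spread in these tests was thus estimated over both genotypes. Within non-targeting guides, where 46.9% of genes passed (23.9% higher, 23% lower), MT1G (−1.39) and MT1F (−0.80) fell and MT1L (2.27) rose. Within ZRSR2 guides 36.9% passed (18.9% higher, 18% lower). There MT1G (−1.27) fell and MT1L (1.75) rose, and MT1F (−0.43, edgeR adjusted p 0.092) did not pass. The estimates for MT1H were −2.63 and −1.95 and those for MT1M −1.89 and −1.18 in these genotypes, given without a test. The call on MT1F within non-targeting guides was lost without their replicate 2 (−0.68). Within ZRSR2 guides the call on MT1G was lost without replicate 1 (−0.95) or 3 (−0.94). Such fits leave 1 library in an arm, which is assumed to vary like those of the other arms. The difference of these effects between genotypes was tested as an interaction. With edgeR 0 of 14898 genes (0%) passed, though 248 (1.66%) had an unadjusted p under 0.05, and DESeq2 also called 0. Among the 8 tested set members the unadjusted p of the interaction was 0.195 to 0.779, and for MT1L it was 0.0863, at a log2 difference of −0.53 (SE 0.28).

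The share of MT2A in the metallothionein pool separated the experiments. Summed over the 16 metallothionein symbols of the table, the level was 147 to 211 CPM in experiment 1 and 131 to 215 CPM in experiment 2. MT2A made up 63.8% to 64.7% of that sum in the 4 libraries of experiment 1 and 69.8% to 70.6% in experiment 2, so the shares did not overlap although the levels did. MT1G went from 5.39% to 6.70% of the sum in experiment 1 to 2.34% to 3.01% in experiment 2. MT1L went from 0.664% to 1.08% to 3.18% to 3.83%, and so exceeded MT1G in every library of experiment 2. The share of MT1X was 13.2% to 15.9% in experiment 1 and 8.67% to 11.7% in experiment 2, without overlap although its levels overlapped. The share of MT1F, at 3.43% to 4.08% and 2.09% to 4.04%, overlapped. The share of MT1E covered 8.17% to 10.6% in experiment 1 and 9.07% to 11.4% in experiment 2. These shares are of counts and are not corrected for transcript length.

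**Figure D3:**
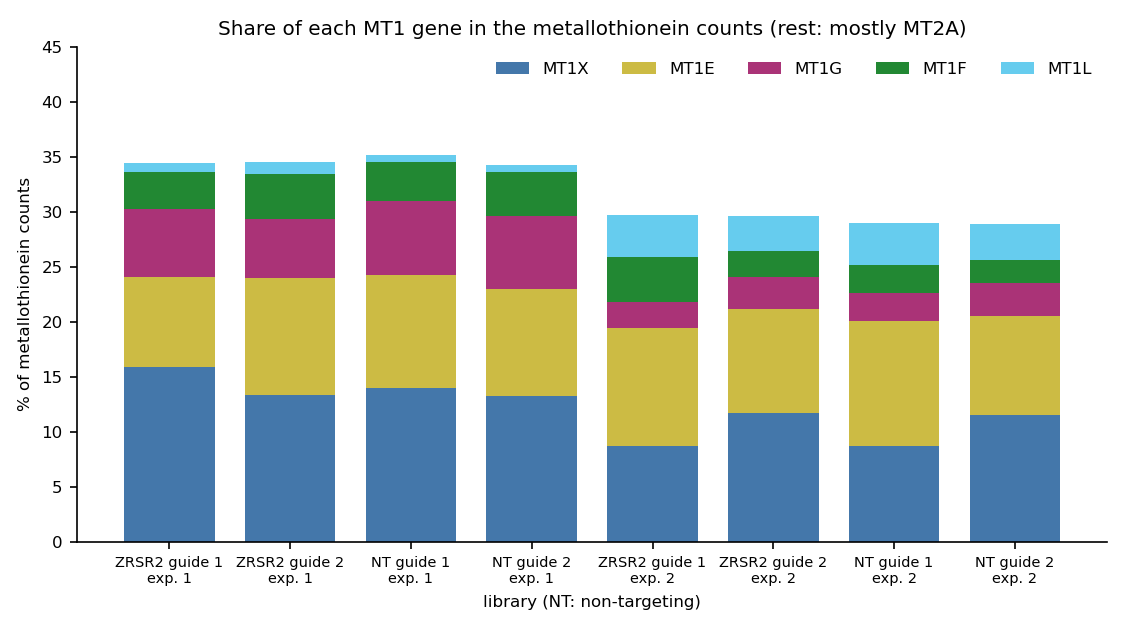
Share of MT1X, MT1E, MT1G, MT1F and MT1L in the summed metallothionein counts of each library, as stacked percentages from 0, with experiment 1 on the left and experiment 2 on the right. The rest of each library is nearly all MT2A, at 63.8% to 64.7% in experiment 1 and 69.8% to 70.6% in experiment 2.

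The values for ZRSR2 guides against non-targeting guides follow as a description. MT1E averaged 15.5 ± 0.94 CPM with ZRSR2 guides and 20.2 ± 0.738 CPM with non-targeting guides (SD, n = 4 each), or 76.7% of the control mean. The highest ZRSR2 library (16.4 CPM) was below the lowest control (19.5 CPM), and 0.376% of tested genes were lower with ZRSR2 guides without overlap. Since MT1E was chosen with this contrast known, nothing is read from that count. The ratio was 75.3% within experiment 1 and 78.1% within experiment 2.

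Over both experiments the other members overlapped between genotypes. MT2A averaged 108.4 ± 17.4 CPM against 135.0 ± 12.5 CPM in controls, or 80.2% of the control mean, and MT1X 20.6 ± 7.94 against 24.1 ± 6.31 CPM, or 85.4%. MT1G stood at 72.7% of the control mean, MT1H at 56.8%, MT1M at 75.4% and MT1F at 89.5%, while MTF1 stood at 99.0%. Within an experiment, where 2 libraries are set against 2, MT2A was lower with ZRSR2 guides without overlap in both, though in experiment 2 by only 121.5 against 121.8 CPM. Of all tested genes 3.26% were lower without overlap in both experiments. MT1F, MT1G, MT1H and MT1M were lower without overlap in experiment 1 and overlapped in experiment 2. MTF1 overlapped in experiment 1 and was lower in experiment 2, though by only 65.4 against 65.5 CPM, and MT1X overlapped in both. No share of all tested genes is given for a single experiment, so nothing is read from these separations. The log2 fold change of MT1E was −0.38, that of MT2A −0.32, that of MT1G −0.46 and that of MTF1 −0.01.

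Guides of the same genotype were compared as well, 2 libraries against 2, in a fit of all 8 libraries. Between ZRSR2 guides 2 and 1, 0 genes (0%) passed in edgeR, and 27 (0.181%) had an unadjusted p under 0.05. For non-targeting guides 2 and 1 the numbers were 0 (0%) and 13 (0.0873%). DESeq2 called 0 in either case. This fit leaves the difference between experiments in its spread. With the experiment as a block, 0 genes passed in either comparison, while 376 and 482 had an unadjusted p under 0.05. The log2 fold changes of the tested set members lay between −0.45 (MT1H) and 0.12 (MTF1) for the ZRSR2 guides and between −0.09 (MTF1) and 0.54 (MT1H) for the non-targeting guides, and MT1E was at 0.09 and −0.03.

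Within an experiment, MT2A, MT1X and MT1G varied together from library to library. In experiment 1 the ZRSR2 guide 2 library was the lowest for all 3, at 78.3%, 73.7% and 66.7% of the mean of its experiment. In experiment 2 the ZRSR2 guide 1 library was the lowest, at 75.2%, 63.6% and 64.6%, and the non-targeting guide 2 library the highest, at 125%, 138% and 136%. After the mean of each experiment was subtracted from log2 CPM, Pearson's r over the 8 libraries was 0.978 between MT1G and MT2A, 0.94 between MT1G and MT1X and 0.915 between MT1X and MT2A. MT1E correlated with MT2A at 0.792 on that scale, and MTF1 with MT2A at −0.445. The points share libraries, depth and guide, and MT1X and MT1G share sequence, so these correlations are a description without a test. Genes outside the family reached higher values on this scale, such as PFKL with MT2A (0.99) and CES3 with MT1X (0.995).

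**Figure D4:**
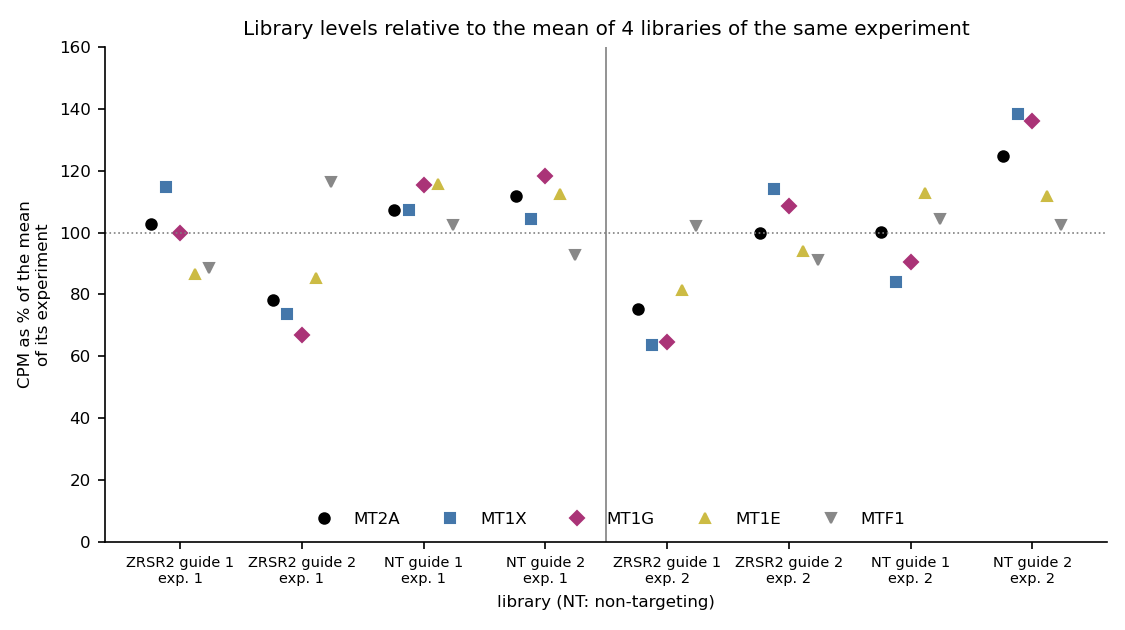
CPM of MT2A, MT1X, MT1G, MT1E and MTF1 in each library as a percentage of the mean of the 4 libraries of the same experiment, with experiment 1 left and experiment 2 right of the vertical line and the dotted line at 100%. MT2A, MT1X and MT1G sit close to each other in each library, from 63.6% to 138%, and MT1E is below 100% with ZRSR2 guides.

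Genes most like 3 of the members were found by Pearson's r of log2 CPM over the 8 libraries, among 11008 genes outside the family with a mean of at least 5 CPM. For MT2A these were SH2D3C (0.982), RAC2 (0.954) and NADSYN1 (0.947). For MT1X they were MTFR1L (0.986), ICAM3 (0.98) and ZFP36L1 (0.977), and for MT1E they were SLC4A1 (0.908), MKNK2 (0.896) and SPI1 (0.893). After subtracting the experiment means, MT2A was most like PFKL (0.99), MIF (0.987) and ELL (0.985), MT1X most like CES3 (0.995), HBB (0.994) and PACS1 (0.992), and MT1E most like FZD2 (0.983), ZDHHC12 (0.968) and PGAP2 (0.967). HBB, a globin gene, was at 14.6, 13.4, 14.4 and 10.04 CPM in experiment 1 and at 30.04, 44.9, 24.05 and 39.8 CPM in experiment 2, so it moved with MT1X within an experiment and against it between experiments.

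The zinc transporters are read against the background of 29.6% of all tested genes higher and 28.6% lower in experiment 2. Of 10 SLC30 genes, most of them exporters of zinc from the cytosol, 9 were tested. In experiment 2, 3 were higher and 3 lower, with a median log2 fold change of −0.13. The higher ones include SLC30A10, which reached the filter level in 0 libraries of experiment 1 and 4 of experiment 2. It passed the filter only through the experiment in which it was high, so nothing is read from its call. SLC30A1, the exporter of the plasma membrane and itself a target of MTF1, was at 24.3, 23.8, 21.8 and 23.3 CPM in experiment 1 and at 18.2, 17.3, 17.3 and 18.6 CPM in experiment 2. It fell without overlap, by 0.38 on the log2 scale (SE 0.08, edgeR adjusted p 0.00246). SLC30A2 (−0.77) and SLC30A7 (−0.49) fell as well and SLC30A9 (0.57) rose. Of 14 SLC39 genes, which bring zinc into the cytosol, 11 were tested, with 2 higher, 2 lower and a median of −0.12. SLC39A14, which also carries iron and manganese, fell by 0.93 (SE 0.11, edgeR adjusted p 5.62e-05), from 93.1 to 111.9 CPM in experiment 1 to 37.3 to 63.4 CPM in experiment 2. SLC39A8 (−0.23) also fell, though this call was lost without non-targeting replicates 1 or 2 or ZRSR2 replicate 2, and SLC39A7 (0.62) and SLC39A9 (0.31) rose.

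Of 12 copper genes, 1 was higher and 4 lower, with a median of −0.02, where 29.6% of all tested genes were higher and 28.6% lower. SCO2, which delivers copper to cytochrome oxidase, fell by 1.00 (SE 0.15, edgeR adjusted p 0.000225), SOD1 (−0.34), a copper and zinc enzyme, fell, as did SCO1 (−0.32), and CCS (0.22), which loads copper into SOD1, rose. The call on CCS was lost in 5 of 8 fits that left out a library (non-targeting replicates 1 and 2, ZRSR2 replicates 1, 2 and 4), and that on SCO1 without ZRSR2 replicate 4.

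Genes of the responses to other known inducers of metallothioneins are read against the same 29.6% higher and 28.6% lower among all tested genes. The lists hold regulators of these responses as well as their targets. Of 9 genes of the glucocorticoid response, 6 were higher and 0 lower, with a median of 0.34, among them ZBTB16 (1.34), CEBPD (1.12) and TSC22D3 (0.95). Of 9 heat shock genes, 0 were higher and 7 lower, with a median of −0.65, among them the chaperones HSPA8 (−1.54), HSPH1 (−1.40) and HSPA1B (−0.68). Reads of HSPA1B can be shared with its near copy HSPA1A. Of 13 oxidative stress genes, 4 were higher and 5 lower, with a median of −0.06. The heme oxygenase HMOX1 (0.82), OSGIN1 (1.17) and PRDX1 (0.37) rose, and the regulator KEAP1 (−0.38) and NQO1 (−0.43) fell. The calls on PRDX1 and NQO1 held in 5 and 4 of 8 fits that left out a library. PRDX1 lost its call without non-targeting replicate 3 or ZRSR2 replicates 1 or 3, and NQO1 without non-targeting replicates 2 or 4 or ZRSR2 replicates 1 or 4.

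Of 9 listed neighbours of the cluster on chromosome 16, 7 were tested, with 3 higher and 2 lower and a median of 0.13, where 58.2% of all tested genes were called. BBS2 (0.81), a ciliary gene, and HERPUD1 (0.67), of the degradation of misfolded proteins, rose. OGFOD1 (−0.47), an oxygenase that acts on a ribosomal protein, and CETP (−0.75), the cholesteryl ester transfer protein, fell. CETP was at 94.6, 95.5, 91.8 and 49.5 CPM in experiment 1 and at 41.4, 66.8, 37.5 and 50.1 CPM in experiment 2.

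Of 8 megakaryoblast markers 7 were tested, 4 higher and 0 lower in experiment 2, where 58.2% of all tested genes were called and 29.6% were higher, and their summed level was 3663 to 3881 CPM in experiment 1 and 4154 to 5302 CPM in experiment 2. Of 8 markers of other cells 4 were tested and 1 was higher, PDGFRB, a fibroblast marker, at 0.551 to 0.898 CPM in experiment 1 and 2.79 to 3.63 CPM in experiment 2. The summed level of those markers was 218 to 234 CPM in experiment 1 and 210 to 271 CPM in experiment 2, with MS4A1 at 0 in every library. Their part in the changes of the metallothioneins was not tested.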

How the data were processed

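The authors deposited a table of expected counts from RSEM, with 1 row per gene symbol, and its values were already whole numbers. The submitters' processing notes name cutadapt 1.11, RSEM 1.2.30 and hg19. The annotation, aligner, read length and use of strand are not given in the sources used here. RSEM divides reads that fit several genes by probability, which matters for near-identical metallothioneins. The number that ends each sample's title named its column, and the table held 0 columns of other samples.

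The count filter was edgeR's filterByExpr on genotype, which kept 14898 genes, and scaling was by TMM. Tests were edgeR's quasi-likelihood F test, with 4 cells of genotype by experiment or, for guides, with 4 guides, and Benjamini-Hochberg adjustment over all tested genes. A prior count of 2 entered log2 CPM. The tools were edgeR 4.0.16 and DESeq2 1.42.0 under R 4.3.3, and Python 3.11.15 with Biopython 1.88 and matplotlib 3.10.9. The fits were tested on simulated data. Alternatives were the replicate block, DESeq2, its size factors, other count filters and leaving out each library.

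Deviations from the genotype means correlated at 0.678 to 0.846 between genotypes of the same experiment and at −0.816 to −0.709 across experiments, so the experiment pairs the libraries of both genotypes. For guides, deviations from the experiment means were used instead. Across experiments they correlated at −0.0275 to 0.0576 for the same guide and at −0.135 to 0.158 for different guides, so the guide does not pair them. Coding sequences and transcripts came from GENCODE 29 and promoters from RefSeq on GRCh38.p14. The reference transcript of a gene is its principal coding one, or MT1L-201.

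The members and lists were chosen with earlier results of these data known. Named were all members, the 3 genes of each list and direction with the largest called change among those averaging 1 CPM or more, and the 3 genes most like MT2A, MT1X and MT1E. A few genes that this rule or the lists name are not reported here. MT1L, HBB and CETP are given in more detail after their values were seen.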

Additional observations from a re-analysis of the deposited data

How the results depend on the processing

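For 71 results, 906 values were computed under alternatives, and 849 of them kept direction and call, or moved by less than 1.5 times (counts) or 1 SD (descriptions). Another 36 no longer passed the threshold, 4 passed it where the reported value did not, 12 tested values turned sign and 5 counts moved by over 1.5 times.

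With the guide as a replicate block, 8167 genes were called between experiments in place of 8671, and with the experiment as a block the guide comparisons again called 0 genes, with 376 and 482 at an unadjusted p under 0.05. The block changed 3 calls on named genes: MT1X within ZRSR2 guides then passed at −0.69, and SLC39A8 (−0.23) and CCS (0.22) did not pass between experiments. Without a count filter the interaction called 5 genes in place of 0, none in the family, and MT1X passed within non-targeting (−0.51) and within ZRSR2 guides (−0.67), while CCS (0.23) did not pass between experiments.

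The calls on MT1G, MT1F and MT1L between experiments held in every fit. MT1H and MT1M were not tested with at least 10 counts in every library. In fits that left out a library, the calls between experiments ran from 7178 to 9193, within non-targeting from 4094 to 7233 and within ZRSR2 guides from 2787 to 6946.

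The sign turns in tests fell on MT2A, MTF1 and MT1E. With at least 10 counts in every library MT2A was at 0.0042 between experiments. Without one library MT2A was at −0.115 to 0.099 between experiments, at −0.143 to 0.188 within non-targeting and at −0.267 to 0.157 within ZRSR2 guides. MTF1 was at −0.134 to 0.0609, at −0.0242 to 0.118 and at −0.314 to 0.0768 in these comparisons, and MT1E was at −0.143 to 0.0686 within ZRSR2 guides. Among the untested values of ZRSR2 guides against controls, MT1F went from −0.16 to as high as 0.0305, MT1L from −0.25 to 0.15 and MTF1 from −0.01 to 0.0329. The cause was not tested. Depth limits MT1H, MT1M, MT1A and MT3 most.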

Other observations

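Metallothionein symbols outside the comparisons were nearly silent. MT3, known for its expression in brain, had 1, 0, 0 and 2 counts in experiment 1 and 24, 18, 3 and 9 counts in experiment 2, for non-targeting guides 1 and 2 and ZRSR2 guides 1 and 2. All libraries of experiment 2 were above those of experiment 1, but the gene was too low to test and no fold is given. MT1B, MT4 and MT1HL1 had 0 counts in every library, although the promoter windows of MT1B and MT4 each held 3 metal response element cores, a number that 1.58% of promoter windows reach or exceed. The pseudogenes MT1DP, MT1IP and MT1JP had at most 2 counts in a library.

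Ratios of counts within a library do not depend on scaling between libraries. MT1L was at 6.45% to 10.2% of the MT1E count in the libraries of experiment 1 and at 33.0% to 35.5% in those of experiment 2. MT1G was at 8.33% to 10.5% of the MT2A count in experiment 1 and at 3.35% to 4.26% in experiment 2. MT1E was at 12.6% to 16.3% of the MT2A count in experiment 1 and at 12.8% to 16.2% in experiment 2. MT1X was at 20.5% to 24.6% of the MT2A count in experiment 1 and at 12.3% to 16.8% in experiment 2. The ratios of MT1L, MT1G and MT1X thus separated the experiments, MT1L upwards and the others downwards, and that of MT1E did not.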
